A study of Mus musculus with 2 samples.

Results

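The nuclear genes for respiratory complexes II to V and for cytochrome c were compared between skeletal muscle of non-transgenic controls and of RXRγ mice. Members were taken by symbol from the platform annotation: Sdha, Sdhb, Sdhc, Sdhd, Cyc1, Cycs, and every symbol starting with Uqcr, Cox4, Cox5, Cox6, Cox7, Cox8 or Atp5, provided that the probe set was named for that gene alone. On this array a transcript is read by a probe set, several short oligonucleotides whose signals are combined. The rule found 48 genes on 96 probe sets, out of 18194 genes named in this way and 45101 probe sets on the array. They comprise 4 genes of complex II, 9 of complex III, cytochrome c, 17 of complex IV and 17 of complex V.

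All animals were females at 4 months of age, and C57BL6 is the strain named in the animal methods of the study. The control mice were wildtype, and the RXRγ mice (line 4-3) carried RXRγ, a nuclear receptor that pairs with many other receptors, as a transgene driven by the human α-actin promoter in skeletal muscle. RNA was pooled within each genotype, with 5 animals per pool in the series description and 3 in the extraction protocol, and each pool was hybridized to 1 Affymetrix MG430 array. Since each genotype has 1 array, the values carry no replicate error, differences could not be tested, and no p-value is given. The RNA came from whole muscle, so fewer cells or fibres of a kind and less RNA per cell cannot be told apart.

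The respiratory chain passes electrons from foodstuffs to oxygen in the inner mitochondrial membrane. Complex II (succinate dehydrogenase) feeds electrons from the citric acid cycle into ubiquinone, complex III hands them to cytochrome c, and complex IV (cytochrome c oxidase) transfers them to oxygen. Complexes III and IV pump protons, and complex V (ATP synthase) lets the protons flow back to make ATP. Oxidative muscle fibres are rich in these complexes, and several subunits of complex IV exist in a form of heart and skeletal muscle and in a form of most other tissues.

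The deposited values are linear signals that the authors had scaled. After trimming 2% of probe sets at each end, the mean signal of either array was 100.0. Each probe set was given a log2 ratio, RXRγ mice over control mice, and a gene was measured if at least 1 of its probe sets had a signal above 250 on the brighter array. A gene's log2 ratio is the mean over those probe sets, and its signal is the mean of the same probe sets. It was called higher or lower at a log2 ratio of 0.4 in either direction. Of the 18194 genes 3780 were measured, with a median log2 ratio of -0.04. The transgene product was 27.4-fold higher in RXRγ mice (Rxrg signal 9172 against 334.5).

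Of the 48 member genes, 43 were measured, on 74 probe sets that all had a signal of at least 257.5 on both arrays. Only 3 of the 43 were called: Cox8a and Atp5d were higher in RXRγ mice and Cox8b was lower. The other 40 had log2 ratios between -0.27 and 0.26. The median over all 43 was 0.01, with 24 genes above 0 and 19 below. The calls amount to 4.65% higher and 2.33% lower, where among all measured genes 16.8% were called higher and 20.1% lower. Members are bright, and 40 of them had a signal above 1000 on both arrays. Among the 656 genes that bright, 6.25% were called higher and 16% lower, against 1 and 1 of the 40 members. The set of bright genes was chosen after the data were seen. The quartiles of the log2 ratio were -0.10 and 0.14 for the members, -0.26 and 0.11 for the 656 bright genes, and -0.32 and 0.26 for all measured genes. Whether the members differ from other genes in this respect was not tested.

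**Figure D1:**
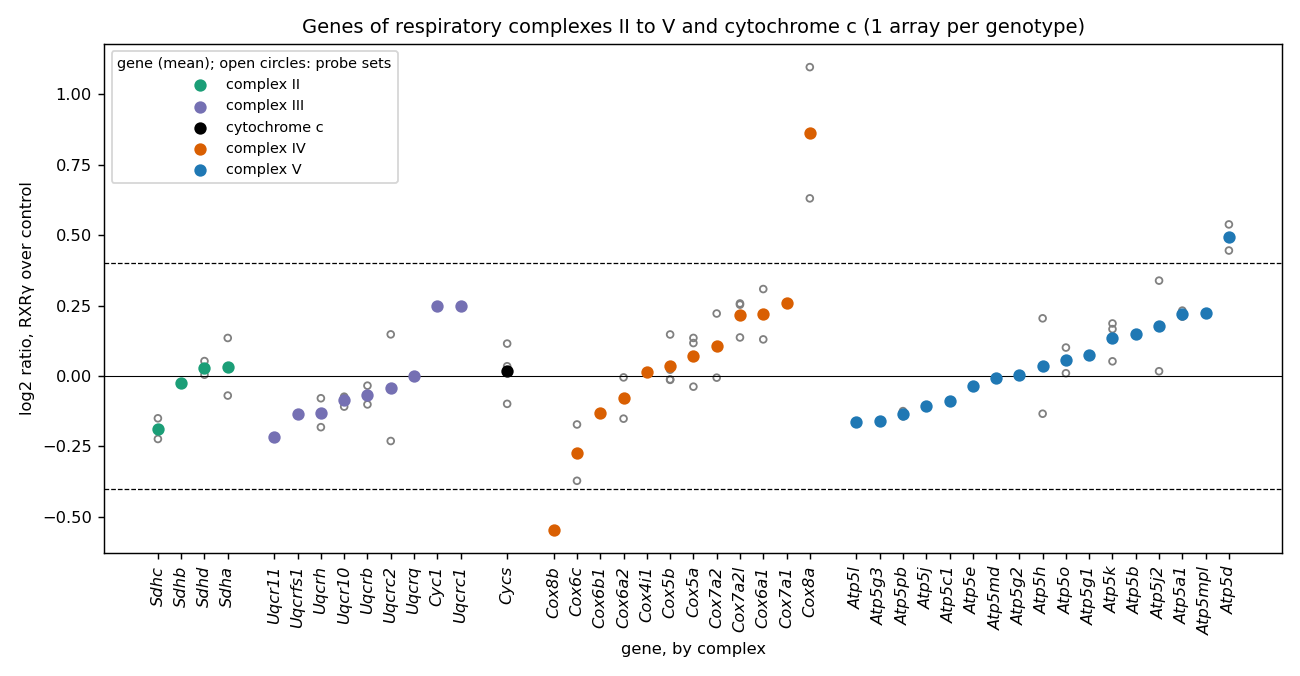
log2 ratio between RXRγ and control mice for each of the 43 measured genes, grouped by complex; filled points are genes, open circles their probe sets where there are several, and dashed lines mark 0.4 in either direction. Cox8a (0.86) and Atp5d (0.49) lie above the upper line, Cox8b (-0.55) lies below the lower line, and the other 40 genes lie between them.

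The remaining 22 probe sets had signals of at most 101.3, and 15 of them belonged to genes that were measured through other probe sets. The other 7 were the only probe sets of the 5 members that were not measured. Cox4i2, a form of subunit 4 known from lung, had a highest signal of 28.5 on either array. Cox6b2, Cox7b2 and Cox8c, which are known from testis, reached 16.3, 7.8 and 101.3. Cox7c is a subunit of every tissue, and its listed probe sets reached 23.5. No level or ratio is given for these genes. Cox7b and the subunits encoded by mitochondrial DNA were not analysed here.

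**Figure D2:**
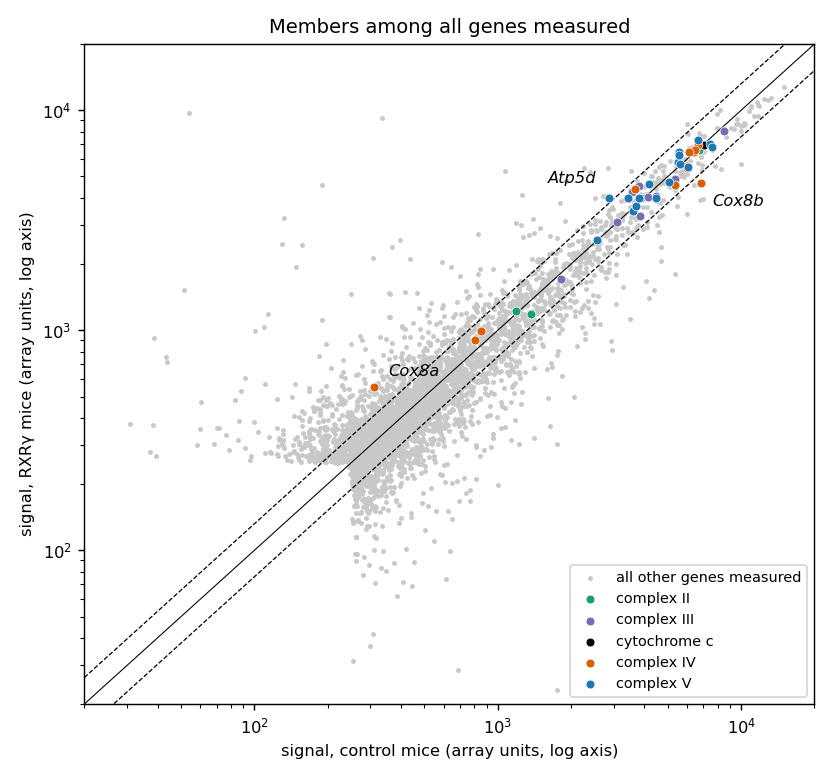
Signals of the measured genes, with RXRγ mice on the vertical and control mice on the horizontal log axis (array units, 1 array per genotype); coloured points are members by complex, grey points all other genes, the solid line marks equal signals and dashed lines a log2 ratio of 0.4 in either direction. Most members lie at the bright end near the solid line, while Cox8a stands at 309.2 in control mice and 554.9 in RXRγ mice.

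Complex II was even between the genotypes, and none of its 4 genes was called (median log2 ratio 0.00). Sdha, the flavoprotein that oxidizes succinate, had probe sets reading 4153 and 3597 in control mice, 4561 and 3428 in RXRγ mice, log2 ratios of 0.14 and -0.07. The iron-sulphur subunit Sdhb had 6741 in control mice and 6621 in RXRγ mice (log2 ratio -0.03). Of the membrane anchors, Sdhd had a log2 ratio of 0.03, while Sdhc had the lowest of the complex (1367 against 1185, log2 ratio -0.19). Both probe sets of Sdhc lay below 0, at -0.22 and -0.15, so the genotypes differed in the same direction at each, by less than the threshold.

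Complex III went slightly both ways, and none of its 9 genes was called (median -0.07). The highest ratios were those of Uqcrc1, a core protein of the complex, with 3807 in control against 4523 in RXRγ mice (0.25), and of Cyc1, the cytochrome c1 that hands electrons to cytochrome c, with 3569 and 4237 (0.25). The other redox subunit, the Rieske iron-sulphur protein Uqcrfs1, had 4473 and 4074 (-0.14). For the core protein Uqcrc2 the probe sets disagreed in sign, at 0.15 and -0.23, which gives a mean of -0.04. The 5 small subunits Uqcrb, Uqcrh, Uqcrq, Uqcr10 and Uqcr11 had a median of -0.09 and ran from -0.22 (Uqcr11, 3854 against 3313) to 0.00 (Uqcrq, 3095 against 3098). Uqcr10 has 3 probe sets, which lay close together between -0.11 and -0.07.

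Cytochrome c, the mobile carrier between complexes III and IV that is encoded by Cycs, had 3 probe sets with signals of 6427, 4285 and 10311 in control mice, against 6583, 4640 and 9628 in RXRγ mice. The mean log2 ratio was 0.02, and the probe sets ran from -0.10 to 0.12.

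Complex IV held the largest differences among the members. Of its 12 measured genes 1 was higher, 1 was lower and 10 lay within the threshold, and the median was 0.05. The pair beyond the threshold encodes alternative forms of the same subunit. Subunit 8 is a small membrane protein of the complex, made from Cox8a in most tissues and from Cox8b in heart and skeletal muscle of the mouse. The only probe set of Cox8b read 6851 in control mice and 4689 in RXRγ mice (log2 ratio -0.55, a 1.46-fold lower signal). Cox8a had 360.9 and 257.5 on its measured probe sets in control mice and 558.9 and 550.9 in RXRγ mice, log2 ratios of 0.63 and 1.10 with a mean of 0.86. The log2 ratio of Cox8a exceeded that of Cox8b by 1.41. The probe sets of Cox8a differed from each other by 0.47, the widest span of any member with several probe sets, where the median span was 0.14 over 24 members and 0.20 over all 1213 genes with several. The probe set of Cox8a with the larger ratio has a name ending in _x_at, which marks oligonucleotides that can also match other transcripts.

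The stretches before the start sites of these 2 genes are shown because their ratios lay on opposite sides of 0. They were taken from RefSeq on GRCm38.p6, and each runs from 120 bases before the annotated start to 15 bases after it. Capitals mark CTTCCGG, the reverse strand of CCGGAAG, which is the core of sites bound by GABP, an activator of nuclear genes for mitochondria.
Cox8a, minus strand, chr19:7217602-7217736: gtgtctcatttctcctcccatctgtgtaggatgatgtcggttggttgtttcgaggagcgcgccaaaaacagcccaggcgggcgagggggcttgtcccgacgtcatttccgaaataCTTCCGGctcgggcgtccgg
Cox8b, minus strand, chr7:140900432-140900566: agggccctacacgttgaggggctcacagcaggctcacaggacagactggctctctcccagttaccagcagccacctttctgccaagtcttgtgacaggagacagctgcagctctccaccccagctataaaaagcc

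The match in Cox8a runs from position -5 to 2 relative to the annotated start at 1, and a further match to the same letters lies at positions 33 to 39. Cox8b has no CCGGAAG in its 300 bases. It holds a match to GGTCANAGG, the core of the DR1 element at which RXR heterodimers such as RXR with PPAR bind, at positions 34 to 42 after the annotated start. It lies in the following 26 bases, with the match in capitals.
Cox8b, minus strand, chr7:140900397-140900422: tacctaagtGGTCAGAGGacgtgcag

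Windows of 300 bases, from 250 before each annotated start to 50 after it, were found for 36 of the 48 members. CCGGAAG on either strand was present in 13 of the 36 genes (36.1%) and in 9.93% of all 27025 genes with a window. The members with it were Atp5e, Atp5h, Atp5j, Atp5k, Atp5l, Atp5md, Cox6a1, Cox6b1, Cox8a, Sdhb, Sdhd, Uqcr11 and Uqcrh, which apart from Cox8a were not called. TGCGCATGC, the core of the site of NRF1, was present in Atp5g2, Atp5l and Uqcrc1 (8.33%), against 1.72% of all genes. AAGGTCA, at which ERR receptors bind, was present in 5 members, Atp5e, Atp5g3, Atp5k, Atp5l and Sdhd (13.9%), against 5.38%. GGTCANAGG, which can overlap AAGGTCA, was present in Atp5pb, Cox8b and Uqcrfs1 (8.33%), against 2.02%. ATGGCGGC, a YY1 core, was in none of the 36 and in 2.61% of all genes. The table of all genes includes non-coding ones. Counted by window, CCGGAAG was present in 33.3% of 39 member windows and in 11.6% of 21263 windows of protein-coding genes. Atp5d has 2 annotated starts and none of these letters in either window. Matches of letters are a description, and nothing was measured on binding.

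The other subunits of complex IV with tissue forms differed less. Cox6a2, the muscle form of subunit 6a, had 8968 and 3036 on its probe sets in control mice and 8073 and 3026 in RXRγ mice, a mean log2 ratio of -0.08. Cox6a1, the form of other tissues, had 1312 and 301.2 in control mice and 1436 and 373.1 in RXRγ mice, a mean of 0.22. The ratio of the general form thus lay above that of the muscle form, by 0.30, with neither gene called. For subunit 7a the muscle form was not the lower one. Cox7a1, which is known from heart and skeletal muscle, had 3663 in control against 4386 in RXRγ mice (0.26). The general form Cox7a2 had a mean log2 ratio of 0.11, with -0.01 and 0.22 at its probe sets. Cox7a2l, a related protein that has been linked to supercomplexes of complexes III and IV, had 3 probe sets between 0.14 and 0.26 (856.4 against 993.0 in the mean).

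Among the subunits without a measured alternative form, Cox4i1 had 6389 in control against 6455 in RXRγ mice (0.01), Cox5a a log2 ratio of 0.07 and Cox5b one of 0.04. Subunit 4 is the largest of the nuclear-encoded subunits, and the signals of all 3 genes were nearly equal on the arrays. Cox6b1, on the side where cytochrome c docks, had -0.13 at both of its probe sets. Cox6c had the lowest ratio of the complex after Cox8b, with 7808 and 2859 in control mice and 6929 and 2209 in RXRγ mice, log2 ratios of -0.17 and -0.37. Ndufa4, which the symbol rule leaves out although the protein is now counted as a subunit of complex IV, had 4586 and 5549 (0.27).

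**Figure D3:**
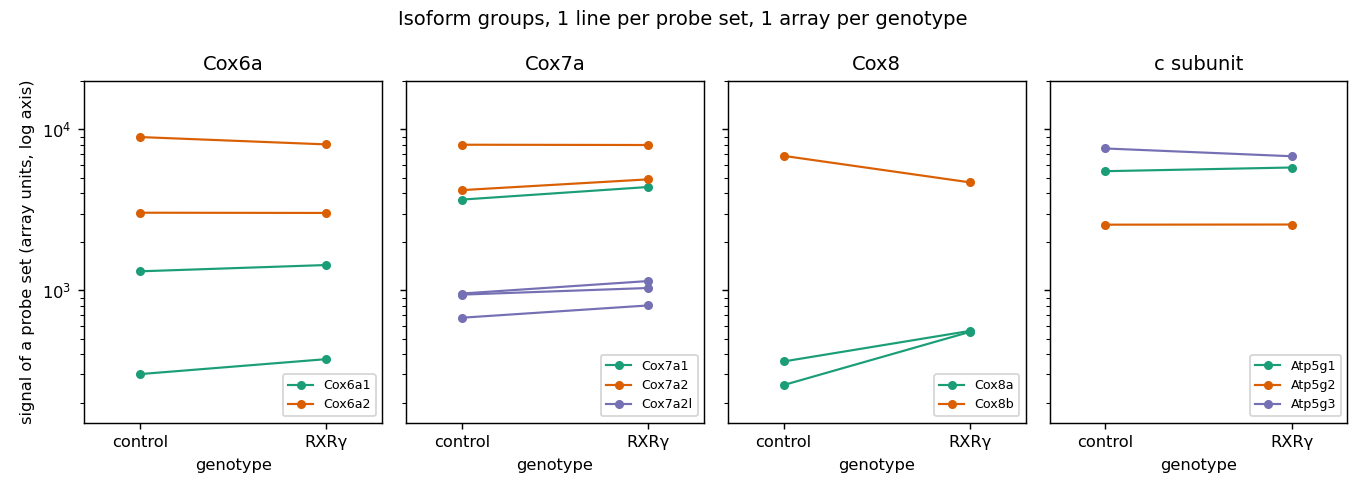
Signal of each measured probe set in control and RXRγ mice for the forms of subunits 6a, 7a and 8 of complex IV and for the genes of the ATP synthase c subunit, on a log axis in array units, 1 line per probe set. The lines of Cox8a rise and that of Cox8b falls, from 6851 to 4689, while the lines of the other genes are nearly level; heights of different probe sets are not comparable.

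Complex V was even apart from Atp5d. Of its 17 genes 1 was higher and none was lower, and the median was 0.04. Atp5d encodes the δ subunit of the central stalk of F1, the part that makes ATP. Its probe sets read 3559 and 2181 in control mice, 4847 and 3167 in RXRγ mice, log2 ratios of 0.45 and 0.54 with a mean of 0.49 (1.41-fold). Both names end in _s_at, which marks oligonucleotides shared by several transcripts, and the gene has no other probe set here. Atp5d lay under the threshold, at 0.39, when the arrays were scaled to the same median.

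The other subunits of F1 lay within the threshold. The catalytic β subunit Atp5b had 6626 in control against 7353 in RXRγ mice (0.15), and Atp5a1, the α subunit, had 0.21 and 0.23 at its probe sets. The γ subunit Atp5c1 had 7466 and 7024 (-0.09), and the ε subunit Atp5e, the partner of Atp5d in the foot of the stalk, had 3584 and 3498 (-0.03). The γ, δ and ε subunits together form the central stalk, and of these only Atp5d was called.

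The c subunits form the ring that turns as protons pass. They are made from 3 genes that encode the same mature protein behind different mitochondrial targeting sequences. Atp5g1 had 5502 in control against 5799 in RXRγ mice (0.08), Atp5g2 had 2558 and 2564 (0.00), and Atp5g3 had 7615 and 6815 (-0.16). The 4 genes of the peripheral stalk, Atp5pb, Atp5h, Atp5j and Atp5o, ran from -0.13 to 0.06 with a median of -0.04, and the probe sets of Atp5h disagreed in sign (-0.13 and 0.20). The 5 small proteins of the membrane part, Atp5j2, Atp5k, Atp5l, Atp5md and Atp5mpl, ran from -0.16 (Atp5l, 4452 against 3978) to 0.22 (Atp5mpl, 3414 against 3984), with a median of 0.14. Atpif1, which inhibits the hydrolysis of ATP by the complex and is outside the symbol rule, had 342.9 and 503.3 (0.55) and was called higher.

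The sign of 16 members depended on the scaling. Over the deposited scaling and 3 others, 13 members stayed above 0, 14 stayed below 0 and 16 changed sign, and the median of the members ran from -0.08 to 0.07. Scaling both arrays to the same median moved the median of all measured genes by -0.11, to -0.15, and the shares called to 13.1% higher and 26.5% lower. Relative to all measured genes the median of the members was 0.06 higher as deposited and 0.07 higher under each of the 3 others.

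**Figure D4:**
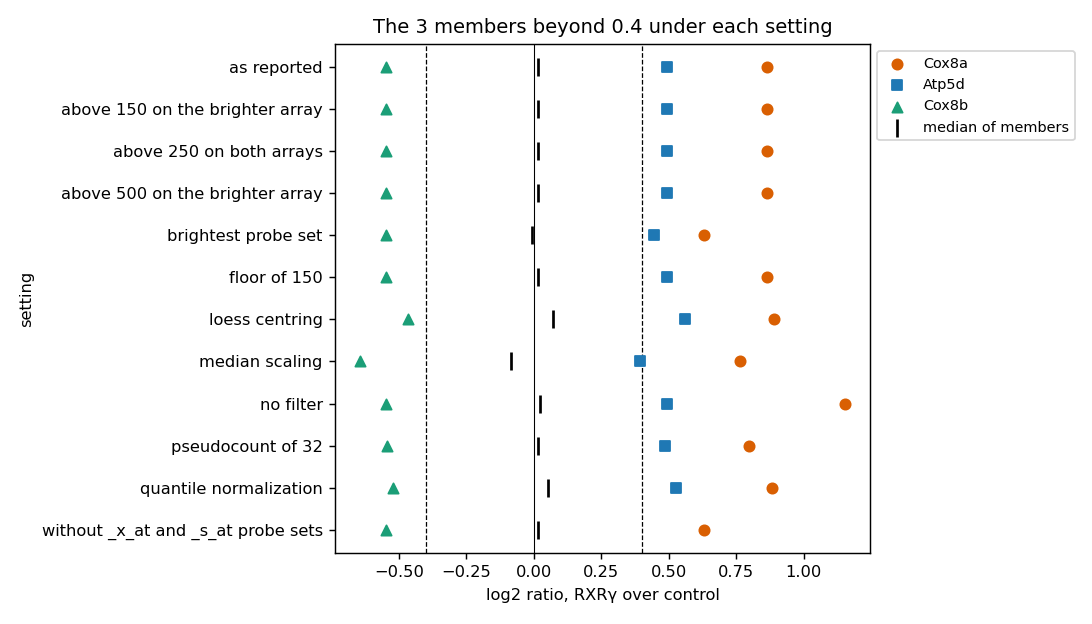
log2 ratio of Cox8a (circles), Atp5d (squares) and Cox8b (triangles), and the median of all measured members (black bars), as reported and under 11 other settings; dashed lines mark 0.4 in either direction. Cox8a and Cox8b stay beyond the lines in every setting shown, but only the scalings and the pseudocount could move the single probe set of Cox8b. Atp5d falls to 0.39 under median scaling and has no value without its _s_at probe sets, and the median stays near 0.

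Genes with related functions were listed for comparison. Of 34 subunits of complex I 32 were measured, and 30 lay within the threshold, 2 were lower (Ndufa8 at -0.50 and Ndufv3 at -0.49) and none was higher (median -0.05). Of 13 measured genes of the citric acid cycle besides complex II, 11 lay within the threshold and 2 were lower (median -0.06). Idh2, the isocitrate dehydrogenase that makes NADPH in mitochondria, had 1224 in control against 304.9 in RXRγ mice (-2.01), and Suclg2 had -0.52. Of 71 measured mitochondrial ribosomal protein genes 3 were higher and 9 were lower (median -0.10), and under median scaling 1 of 70 was higher and 13 were lower. Among all measured genes 16.8% were higher and 20.1% lower, and under median scaling 13.1% and 26.5%. Differences between these lists and the members were not tested.

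Assembly factors, which insert cofactors or chaperone subunits, went both ways. The 44 listed symbols include older names of listed genes, and Cyct, a form of cytochrome c that was not measured. Of the 44, 27 were measured, 2 were higher and 3 were lower (median 0.04), and under median scaling 2 were higher and 7 lower. The shares of all measured genes were 16.8% higher and 20.1% lower as deposited, and 13.1% and 26.5% under median scaling. Cox19, a copper-handling factor for complex IV, had 374.2 in control mice and 668.0 in RXRγ mice (0.84). Sdhaf1, a factor for the iron-sulphur subunit of complex II, had 125.3 and 268.3, and because signals under 150 are too low for a fold it was at least 1.79-fold higher. Cox16, a factor for complex IV, was lower, with 1145 and 671.9 (-0.77). Atpaf1, a chaperone of F1, had -0.68 and -0.52 at its probe sets, and Sdhaf3 had -0.51. None of the measured factors for complex III was called. Uqcc2 was closest to the threshold (0.32), with 0.15 at 1 probe set and 0.48, beyond the threshold, at the other.

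Among regulators of nuclear genes for mitochondria, of 26 listed 14 were measured, 5 were higher and 1 was lower (median 0.00). Under median scaling 1 of the 5, Tfam, stayed beyond the threshold. For all measured genes the shares were 16.8% higher and 20.1% lower as deposited, and 13.1% and 26.5% under median scaling. Tfam, which packages mitochondrial DNA and starts its transcription, had 476.7 in control against 864.8 in RXRγ mice (0.86), and Hif1a, a transcription factor stabilized by low oxygen, had 0.50. Esrra (400.6 against 549.4, 0.46), the coactivator gene Ppargc1a (0.44 over 3 probe sets, from 0.33 to 0.65) and Gabpa (255.3 against 345.4, 0.44) lay just beyond the threshold. Tfb2m, a further factor of mitochondrial transcription, was lower (891.8 against 599.4, -0.57). Nrf1 had a highest signal of 47.1 and was not measured, and the remaining 8 regulators, among them Ppargc1b (0.06), Perm1 (-0.17) and Mef2c (-0.06), lay within the threshold.

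Of 12 genes listed for slow or oxidative fibres 10 were lower and 1 was higher in RXRγ mice. The median was -1.18, which is unchanged when signals under 150 are set to 150. The slow myosin light chain Myl3 had 1747 in control mice and 23.2 in RXRγ mice, at least 10.2-fold lower over its 3 probe sets when signals under 150 are set to 150. The slow myosin heavy chain Myh7 had 1754 and 303.2, and the slow troponin T Tnnt1 had 767.6 and 188.9. Tpm3 was called lower although its 3 probe sets disagreed, from -1.14 to 0.06, and those of Atp2a2 ran from -0.97 to -0.35. The listed gene higher in RXRγ mice was Actn2 (0.93), which is not confined to slow fibres. Myoglobin (Mb), the oxygen store of oxidative fibres, had -0.23. The 12 genes of fast fibres all lay below 0 with a median of -0.22, but 11 did under loess centring and 10 under quantile normalization. Of the 12, 3 were called lower, where 20.1% of all measured genes were. The probe sets of the creatine kinase Ckm (-1.39 and -0.11) and of the fast myosin Myh4 (-0.77 and -0.06) disagreed, and in each 1 probe set carried the call, while Casq1 (-0.49) has a single one. The part of these fibre type differences in the ratios of the respiratory genes was not tested.

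All 10 markers of skeletal muscle were above 250, with a summed signal of 97578 (control) and 85255 (RXRγ). Of the 4 named markers of erythroid cells and the 3 of liver none was above 150. Adipocyte markers summed to 6116 and 6617, with 3 of 7 above 250, and the brown fat gene Ucp1 was under 150 on both arrays. Fibroblast markers summed to 10191 and 12031, with 6 of 6 above 250, and the gene with the widest difference was Lum (699.1 against 1771), while Col1a1 was at 612.8 and 527.9 and Col1a2 at 1593 and 1613. Of 6 macrophage markers 3 were above 250 (summed signals 1368 and 1584), and of 5 endothelial markers none (748.5 and 581.5). Of 7 markers of heart muscle only Actc1, which skeletal muscle also expresses, was above 250. Among smooth muscle markers 1 of 4, and among named Schwann cell markers 2 of 2, were above 250. Most of these cell types also have the respiratory chain, and their part in the ratios was not tested.

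**Figure D5:**
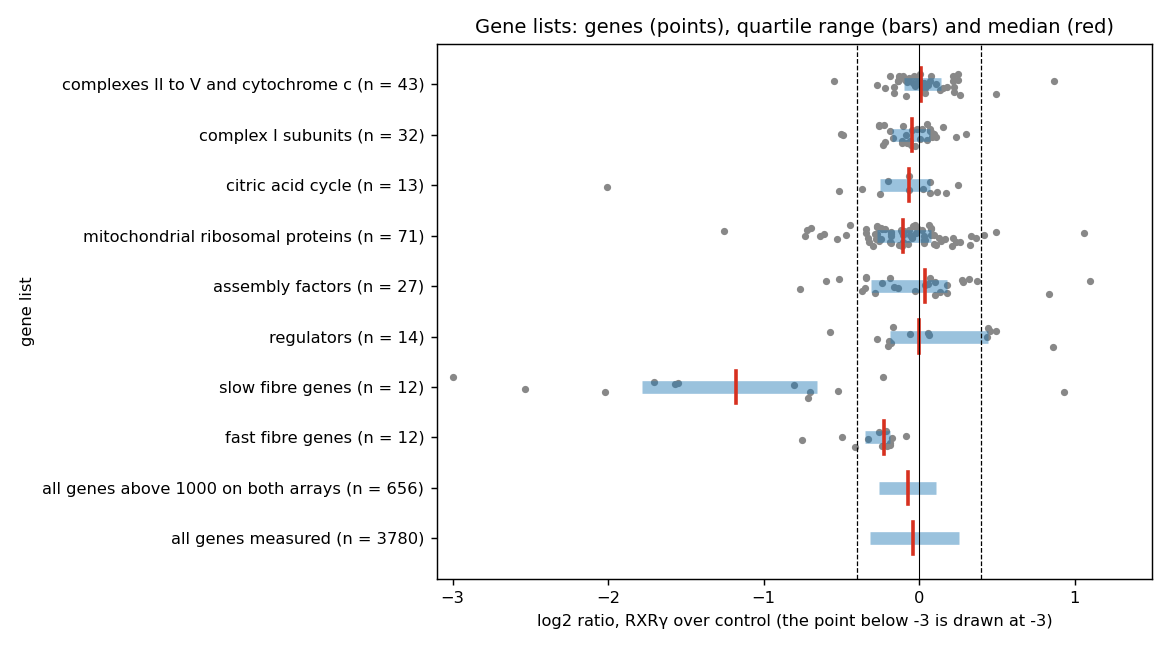
log2 ratio between RXRγ and control mice for the respiratory genes and for 7 comparison lists, 1 point per gene with random height within its row, with the quartile range of each list as a blue bar and the median as a red line; the bottom rows give only the bar and line for 656 bright genes and for all 3780. The respiratory genes centre at 0.01, and the slow fibre genes at -1.18, among them Myl3, whose point is drawn at -3.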

How the data were processed

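RNA from skeletal muscle was combined by genotype, 1 pool and 1 Affymetrix MG430 array each. The deposited values are intensity signals that the authors made with the Affymetrix Gene Chip software from perfectly matched and mismatched oligonucleotides and had scaled before deposit. No source used here gives the scaling algorithm. The software's present calls, a further criterion of the methods, were not used here.

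Groups came from the genotype labels. Of the probe sets, 34958 are named for 1 gene, 932 for several and 9211 are not listed; the latter 2 kinds were not used. log2 ratios had no pseudocount, and the signal filter and the threshold (250 and 0.4) follow the methods of the study. Genes described in full were those called, those with a probe set beyond the threshold, the highest and lowest of each complex and the tissue forms; further genes were named after their values were seen. The members and lists were chosen with earlier results of these data known. The set of genes above 1000 on both arrays and the scaling alternatives for the comparison lists were added after the data were examined. Promoter windows came from RefSeq (GRCm38.p6); the files name no genome build. The calling step was run on simulated data with planted changes well beyond the threshold and little noise. That run does not bear on the reliability of calls near the threshold. Alternatives changed 1 choice at a time. A value was taken as moved beyond 0.20 on the log2 scale, the median span of a gene's probe sets, and a count beyond 1.5 times. With 1 array per genotype, the number of arrays limits the precision. Quantile normalization and loess used limma 3.58.1 in R 4.3.3. All else ran in Python 3.11.15 (numpy 2.4.6, pandas 2.3.3, matplotlib 3.10.9).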

Additional observations from a re-analysis of the deposited data

How the results depend on the processing

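No paired analysis was possible because each genotype has 1 array. The medians of the members and of each complex moved by less than 0.20 under every setting tried. Cox8a and Cox8b kept their direction and stayed beyond 0.4 in each of the 11 settings that gave a log2 ratio. Cox8a ran from 0.63 to 1.16 and Cox8b from -0.65 to -0.47. Cox8b has a single, bright probe set, so only the scalings and the pseudocount could change its ratio. Of the members, 1 was higher under median scaling, 1 without the probe sets ending in _x_at or _s_at (39 genes left, Atp5d not among them) and 1 among genes above 1000 on both arrays, where Atp5d dropped out in the first 2 cases and Cox8a in the last. Without the probe sets ending in _x_at or _s_at, 16.7% of all 3493 genes were higher and 20.7% lower. Counting probe sets gave 4 of 74 higher and 1 lower, and the shares over all measured probe sets were not computed. A threshold of 1 gave 0 higher and 0 lower. Without a filter 7 of 48 members were higher and 4 lower, since probe sets near background then entered. Of all 18194 genes, 28.6% were then higher and 22.6% lower. The log2 ratios of Sdha, Atp5g1 and Atp5g2 became -0.75, 0.55 and 0.60 without a filter. Above 150 on the brighter array, with 5359 genes, 982 of all genes were higher and 1028 lower (18.3% and 19.2%). Above 500, where 2067 genes are left of 3780, there were 340 higher and 438 lower (16.4% and 21.2%). Above 250 on both arrays, with 3055 genes left, there were 371 and 501 (12.1% and 16.4%), and above 1000 on both arrays (added after seeing the data) 41 and 105. Unfiltered, the counts were 5208 and 4114 of 18194 genes (28.6% and 22.6%). A threshold of 1 left 191 and 155 of 3780 genes (5.05% and 4.10%). Cox8a moved with the choice of probe set, to 0.63 with the brightest or without the _x_at probe set, and was 0.86 with a floor of 150 and 0.80 with the pseudocount of 32.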
